A study of Homo sapiens with 4 samples.

Results

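The JAK-STAT pathway carries cytokine signals from the cell surface to the nucleus. Ligands of the IL6 family bind a receptor that pairs with the shared subunit gp130, JAK kinases attached to the receptor phosphorylate STAT proteins, and the STATs move into the nucleus and switch on target genes. Among those targets are the SOCS genes, whose proteins shut the receptor complex down again, while PIAS proteins and the phosphatase SHP-1 restrain the pathway at other steps. In epithelial tumours STAT3 is known for raising genes of survival and proliferation.

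The 29 genes described here were chosen by name, as JAK kinases, STATs, SOCS and PIAS inhibitors, phosphatases, and ligands and receptors of the IL6 family. All 29 matched a row among the 58302 genes listed. They comprise 18 activators (4 kinases, 6 STATs, 3 ligands and 5 receptors) and 10 inhibitors (7 SOCS-family genes with CISH, 2 PIAS genes and PTPN6). PTPN11, whose product SHP2 both passes on and dampens cytokine signals, was kept apart.

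The RNA came from T24, an established line of human urothelial (bladder) carcinoma cells. Of 4 polyA RNA-seq libraries, 2 were from T24 cells carrying an IGF2BP3 knockout made with CRISPR/Cas9 and 2 from T24 cells labelled control, and no other treatment is named. IGF2BP3 is an RNA-binding protein that attaches to messenger RNAs, many of them marked by N6-methyladenosine (m6A), and the comparison asks how expression in T24 differs when it is lost. Whether the libraries of a group stem from separate cultures or clones is not stated. The p-values thus rest on the spread between these samples alone, which may be technical. In the main fit that spread is pooled over genes of like level. In bulk RNA, fewer cells of a kind and less RNA per cell cannot be told apart.

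Depth, recovered from the values, was 811823 and 1240207 gene-assigned reads in knockout 1 and knockout 2, against 2162179 and 1870884 in control 1 and control 2. Genes above 0 numbered 7827 and 11127 in the knockouts and 8856 and 11433 in the controls. IGF2BP3 itself stood at 0 and 0.190 FPKM in the knockouts, against 2.94 and 21.5 FPKM in the controls (0 and 1 reads against 27 and 171). FPKM counts fragments per kilobase of transcript relative to library depth, so levels of different genes are compared per length. Of 12 urothelial and epithelial markers, KRT8 and KRT18 were above 0 in every library and 7 (KRT19, EPCAM, CDH1, UPK2, UPK3A, KRT5 and TP63) were listed at 0 in all 4. All 12 leukocyte markers, PTPRC and SPI1 among them, were listed at 0 in each library.

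Short promoter stretches are given here for CISH and ICAM1 because most STATs bind the palindrome TTCNNNGAA (N is any base), CISH had more copies of it than any other member examined, and ICAM1 was the 1 gene with it among the 12 STAT3 targets in the promoter table. The sequences are RefSeq's (GRCh38.p14), 5′ to 3′ on the strand of the gene, with the palindrome in capitals. CISH is on the minus strand at chr3:50611853-50612024, where the stretch runs from 250 to 79 bases before the RefSeq start. ICAM1 is on the plus strand at chr19:10271020-10271078, from 100 to 42 bases before its start.
CISH: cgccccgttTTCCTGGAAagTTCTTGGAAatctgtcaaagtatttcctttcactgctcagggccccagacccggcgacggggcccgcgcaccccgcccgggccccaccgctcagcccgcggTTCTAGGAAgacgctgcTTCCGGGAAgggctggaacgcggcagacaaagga
ICAM1: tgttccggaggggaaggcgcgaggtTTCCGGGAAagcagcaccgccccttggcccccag
The window searched was the 250 bases before each RefSeq start, and the palindrome reads the same on both strands. It occurred in 6.57% of all 35116 windows, and 4 or more copies occurred in 5 windows (0.0142%). CISH held 4 copies, which began 241, 230, 129 and 112 bases before the start. Of the 25 members with a promoter in the RefSeq table, CISH and LIFR held a copy (8%), and 8.09% of all 27305 symbols did. Among the 12 STAT3 targets the share was 8.33%, near that of all symbols. LIF, SOCS2, SOCS5 and PTPN11 had no entry.

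A part of the pathway had reads in these T24 libraries. Of the 29 members, 14 were above 0 in all 4 libraries and 9 were listed at 0 in all 4. The 9 were JAK3, STAT4, STAT6, IL6, IL11, LIFR, SOCS1, CISH and PTPN6. Several of these are genes of blood cells by background knowledge (JAK3, STAT4 and PTPN6, which encodes SHP-1), and the leukocyte markers were listed at 0 as well. A listed 0 does not show that a gene is silent. NDUFA13, which encodes a subunit of mitochondrial complex I used by cells in general, was also listed at 0 in all 4 libraries, and so no upper limit is given for the 9. STAT6 shares exon sequence on the opposite strand with LRP1, which had 6.45 and 7.42 FPKM in the knockouts against 19.2 and 13.7 FPKM in the controls, and with NAB2. CISH does so with MAPKAPK3, which had 9.48 and 3.24 FPKM in the knockouts against 0 and 5.90 FPKM in the controls.

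JAK2 and STAT5A were detected at the edge of depth. JAK2, the kinase used by gp130 and by hormone-type receptors, had 0 and 1.53 FPKM in the knockouts against 0 and 0.101 FPKM in the controls (0 and 10 reads against 0 and 1). STAT5A had 0 and 0.187 FPKM in the knockouts, which were 0 and 1 reads, and was listed at 0 in both controls. Reads of STAT5A and its near-identical paralog STAT5B can be shared, so both values are uncertain. With the 9 members at 0, these 2 fell below the mean of 1 FPKM over the 4 libraries that a gene needed to be tested, which left 18 members.

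None of the 18 tested members passed the test between knockout and control cells. The targeted gene IGF2BP3 did not pass either (log2 fold change −3.89 ± 2.83, SE, adjusted p = 0.955 in limma). Its reads were 0 and 1 in the knockouts against 27 and 171 in the controls. A member that did not pass is therefore not shown to be unchanged. In limma 0 members passed an adjusted p of 0.05 over all 11463 genes tested, of which 10 did (0.0872%). The calls over all genes were 0.0611% higher and 0.0262% lower in the knockouts. At an unadjusted p under 0.05 limma counted 0 of the 18, against 3.91% of all genes. Limma-voom on recovered reads also called 0 members (0.0961% of all genes), and IL11RA was the 1 member at an unadjusted p under 0.05 (3.29% of all genes). The fitted SE of a gene was taken wholly from genes of like level, and its own replicates had no weight in it. Replicates resembled each other weakly. Across the genes tested, r on the log2(FPKM + 0.5) scale was 0.429 between the 2 knockouts and 0.491 between the 2 controls. With 2 libraries a group, values per library are therefore given beside each fold change, as in the plot of levels by library.

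**Figure D1:**
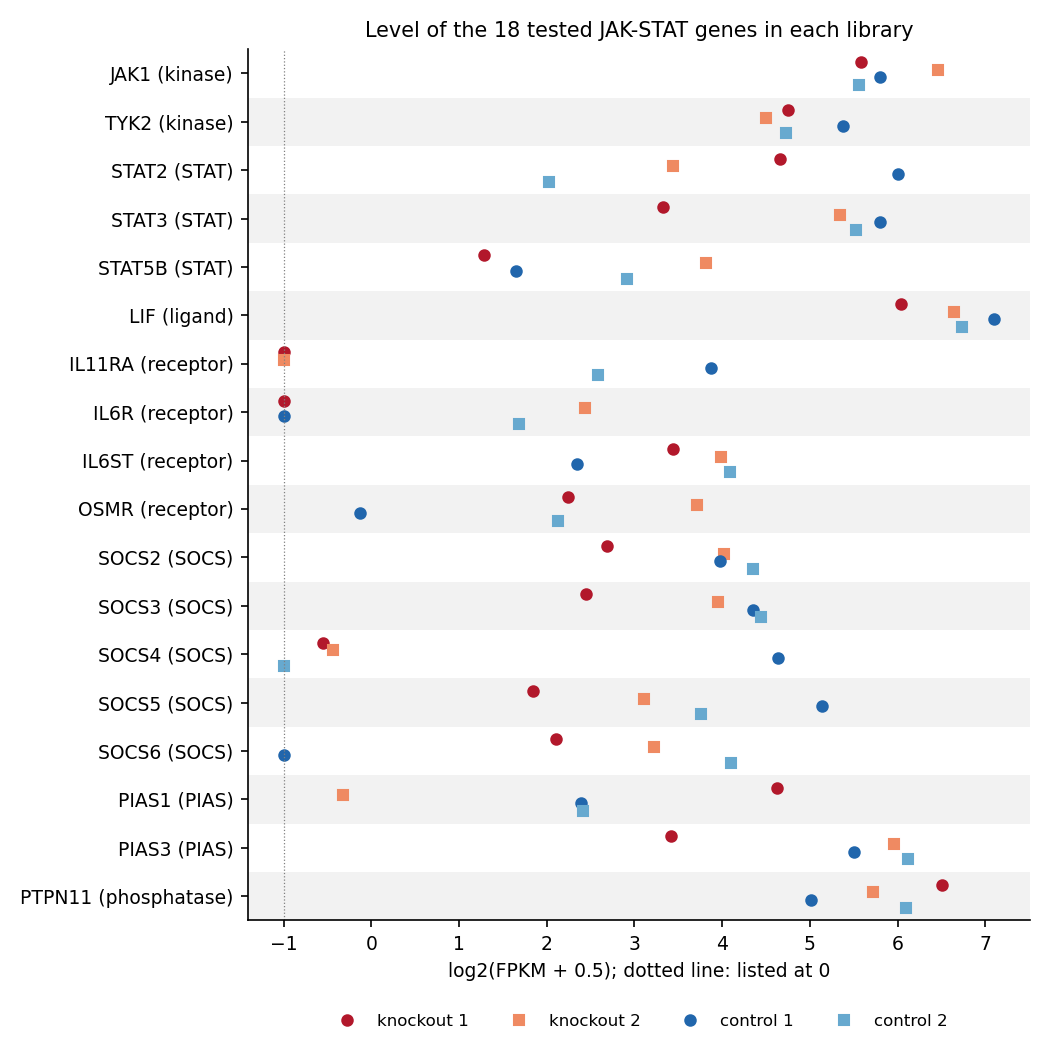
Level of the 18 tested members in each library on a log2(FPKM + 0.5) scale, 1 row per gene ordered by role, with knockout libraries in red and orange and control libraries in dark and light blue. Knockout and control points are apart for 6 genes (STAT3, LIF, IL11RA, OSMR, SOCS3 and SOCS5) and overlap for 12, and points on the dotted line are listed at 0.

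LIF, the leukemia inhibitory factor, was the most abundant member per length and the 1 ligand of the 3 with reads. It had 65.5 and 99.3 FPKM in the knockouts (211 and 489 reads) and 137 and 106 FPKM in the controls (1174 and 788 reads). Both knockouts lay below both controls, although knockout 2 and control 2 differed by less than the libraries of either group did. Its fitted log2 difference was −0.58 ± 0.74 (SE, n = 2 and 2; adjusted p = 0.955 in limma), smaller than its SE, and ran from −0.87 to −0.28 with 1 library left out. On hg38, LIF occupies chromosome 22 from 30240447 to 30246851 (minus strand). IL6 and IL11, ligands of the same family, were listed at 0 throughout.

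Among the receptors, the shared subunit was present in every library and the subunits that choose the ligand varied. IL6ST, which encodes gp130, had 10.3 and 15.3 FPKM in the knockouts against 4.596 and 16.5 FPKM in the controls, groups that overlapped (log2 fold change 0.49 ± 1.77, SE). OSMR, the oncostatin M receptor on chromosome 5 (38845858 to 38945596, plus strand), had 4.23 and 12.7 FPKM in the knockouts against 0.417 and 3.86 FPKM in the controls. Its exons overlap those of RICTOR on the opposite strand, which had 0.258 and 1.52 FPKM in the knockouts against 0.485 and 7.39 FPKM in the controls. OSMR was the 1 member whose knockouts both lay above both controls. Knockout 1 and control 2 were close, however, and control 1 rested on 5 reads. Its log2 fold change was 1.98 ± 2.63 (SE, n = 2 and 2; adjusted p = 0.955 in limma), and ran from 0.86 without control 1 to 3.10 without control 2.

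IL11RA, the receptor subunit that binds IL11, had the largest fitted difference of the 18. It was listed at 0 in both knockouts and at 14.1 and 5.51 FPKM in the controls, which were 92 and 31 reads. The fit put the log2 difference at −4.23 ± 2.83 (SE, n = 2 and 2; adjusted p = 0.955 in limma), a size set by the pseudocount and not a bound. With 1 library left out it ran from −4.87 to −3.59. Without control 1 the only replicates were the 2 knockouts, both listed at 0. The same pattern, 0 in both knockouts and 31 or more reads in each control, held for 48 of the 11463 genes tested. The mirror image held for 18 genes by the same read minimum. Because the knockouts were the shallower libraries, that minimum required a higher level in them, so 48 and 18 are not comparable. IL11RA lies on chromosome 9 from 34650702 to 34661892 on the plus strand, where its exons overlap those of GALT on the same strand. GALT had 0 and 14.1 FPKM in the knockouts against 0 and 4.79 FPKM in the controls.

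IL6R, the receptor subunit for IL6, was seen in 1 library of each group, with 0 and 4.91 FPKM in the knockouts and 0 and 2.71 FPKM in the controls. LIFR, the subunit that pairs with gp130 to bind LIF, was listed at 0 in all 4. The ligand LIF was thus measured at a high level beside a listed 0 for LIFR.

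JAK1 and TYK2 supplied nearly all kinase reads. JAK1 had 47.3 and 87.4 FPKM in the knockouts against 55.3 and 46.6 FPKM in the controls, and both controls lay at or near knockout 1 (log2 fold change 0.34 ± 0.91, SE). TYK2 had 26.4 and 22.1 FPKM in the knockouts against 41.2 and 25.9 FPKM in the controls (−0.43 ± 1.19, SE). Knockout 1 lay between the controls, and both fold changes were smaller than their SE. JAK1 shares exon sequence on the opposite strand with RAVER2. Reads from the shared sequence cannot be assigned to either gene if counting ignored strand.

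STAT3, the main STAT behind gp130, was lower in knockout 1 than in the other three libraries. It had 9.52 and 39.9 FPKM in the knockouts (39 and 250 reads) against 54.98 and 45.4 FPKM in the controls (600 and 429 reads). The groups did not overlap, but knockout 2 lay closer to the controls than to knockout 1. The log2 fold change was −1.33 ± 1.14 (SE, n = 2 and 2; adjusted p = 0.955 in limma) and was −0.32 without knockout 1 and −2.33 without knockout 2. In the fit without knockout 2, knockout 1 was the lone library of its group. STAT3 occupies chromosome 17 from 42313324 to 42388568 (minus strand).

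STAT2 and STAT5B varied more within groups than between them. STAT2, which acts with interferon receptors, had 24.8 and 10.3 FPKM in the knockouts against 63.8 and 3.59 FPKM in the controls, so that the controls held both the highest and the lowest value. Its log2 fold change of 0.03 ± 1.49 (SE) was 2.02 without control 1 and −1.96 without control 2. STAT5B had 1.93 and 13.6 FPKM in the knockouts against 2.63 and 7.02 FPKM in the controls (0.27 ± 2.39, SE). In each group library 2 was the higher for STAT5B, with knockouts at both ends of the order.

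SOCS genes, the feedback inhibitors, had negative fitted values for 4 of the 5 that were tested, and 0 of the 5 passed. SOCS3, which blocks gp130 signalling, had 4.96 and 15.04 FPKM in the knockouts (11 and 51 reads) against 19.96 and 21.3 FPKM in the controls (118 and 109 reads). The controls were close together and both knockouts lay below them. The log2 fold change was −1.20 ± 1.60 (SE, n = 2 and 2; adjusted p = 0.955 in limma), −0.44 without knockout 1 and −1.95 without knockout 2. SOCS3 lies on chromosome 17 from 78356778 to 78360077 on the minus strand.

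SOCS5 and SOCS3 were the inhibitors whose groups were apart, and SOCS5 had the larger fitted difference. It had 3.10 and 8.11 FPKM in the knockouts (12 and 48 reads) against 34.7 and 12.996 FPKM in the controls (358 and 116 reads). Its groups did not overlap, and with IL11RA it was the tested member whose group difference exceeded the gap between replicates in both groups. Its fitted value of −1.97 ± 1.77 on the log2 scale (SE, n = 2 and 2; adjusted p = 0.955 in limma) ran from −2.66 to −1.28 with 1 library left out. SOCS5, known as an inhibitor of IL4 and EGF receptor signalling, lies on chromosome 2 from 46698952 to 46780245 on the plus strand.

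SOCS2, SOCS4 and SOCS6 overlapped between groups. SOCS2, a regulator of growth hormone signalling, had 5.94 and 15.8 FPKM in the knockouts against 15.2 and 19.9 FPKM in the controls (log2 fold change −0.81 ± 1.62, SE). Its antisense neighbour SOCS2-AS1 was at 0 in both knockouts and at 45.6 and 0 FPKM in the controls, and without strand their shared reads cannot be told apart. SOCS4 had 0.182 and 0.238 FPKM in the knockouts, which were 1 and 2 reads, against 24.4 and 0 FPKM in the controls, which were 358 and 0 reads. Its fold change of −2.32 ± 2.73 (SE) thus rested on control 1, and was 0.50 without it. SOCS6 was the 1 tested inhibitor with a positive fitted value (1.11 ± 2.57, SE), at 3.79 and 8.82 FPKM in the knockouts against 0 and 16.6 FPKM in the controls. That sign also rested on control 1 and was −1.44 without it.

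The PIAS genes, which restrain STATs in the nucleus, split the knockout libraries. PIAS3, the inhibitor named for STAT3, had 10.2 and 61.7 FPKM in the knockouts against 44.8 and 68.9 FPKM in the controls, with knockout 1 alone at the low end. Its log2 fold change was −1.12 ± 1.06 (SE) and turned to 0.15 without knockout 1. PIAS1 had 24.1 and 0.298 FPKM in the knockouts (159 and 3 reads) against 4.73 and 4.81 FPKM in the controls. The controls nearly coincided and the knockouts lay on either side of them (−0.25 ± 2.48, SE).

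PTPN11 ranked 2 among the members by mean level per length in the knockouts and 5 in the controls. It had 90.5 and 52.1 FPKM in the knockouts against 31.8 and 67.6 FPKM in the controls, and the groups overlapped (log2 fold change 0.56 ± 0.91, SE). Its exons overlap those of the ribosomal protein gene RPL6 on the opposite strand, which had 66.3 and 160 FPKM in the knockouts against 114 and 132 FPKM in the controls.

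**Figure D2:**
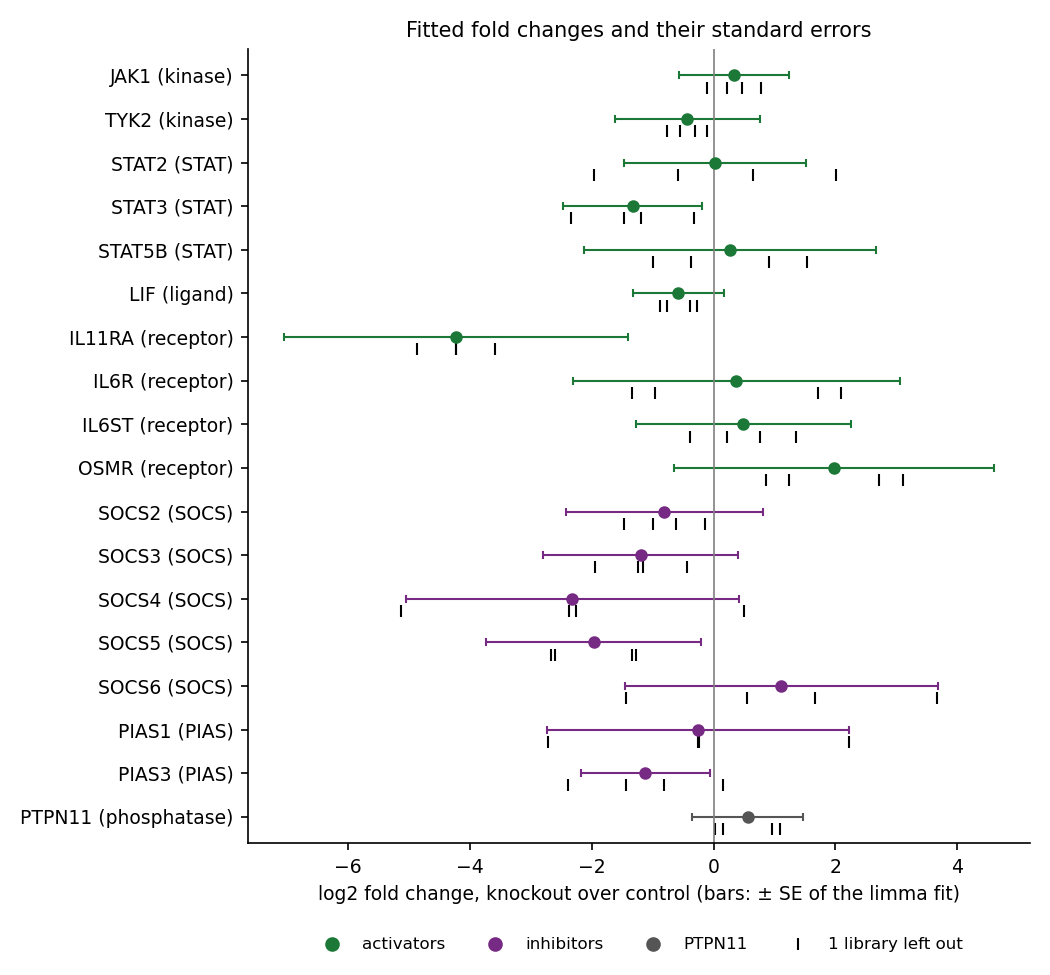
Fitted log2 fold change of knockout over control for the 18 tested members, with bars of ± SE from limma and black ticks for the fits with 1 library left out. Activators are green, inhibitors purple and PTPN11 grey, and the ticks of 9 genes fall on both sides of 0.

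Activators and inhibitors were then set side by side as groups. Of the 10 activators tested, 6 had a positive and 4 a negative fitted value, and their median was 0.15 on the log2 scale. The split was 5 to 5 with median-ratio size factors, a pseudocount of 1 or limma-voom. Of the 7 inhibitors tested, 1 was positive and 6 were negative, with a median of −1.12. Over all 11463 genes tested, 48.2% were positive and the median was −0.08. These counts describe members that passed the filter and carry no test. Of the 18 tested members, 2 had a knockout mean below 1 FPKM and passed the filter through the controls (14.9% of all genes). They were IL11RA and SOCS4, with knockout means of 0 and 0.210 FPKM, and both had negative fitted values. In the other direction, 0 members passed through the knockouts alone (14.3% of all genes). The inhibitor median was −0.44 without knockout 1 and −1.95 without knockout 2, where all genes had medians of 0.16 and −0.56. The activator median turned to −0.59 without knockout 2, −0.37 without control 1 and −0.27 without control 2, where the medians over all genes were −0.56, −0.35 and 0.34. Under quantile normalization 2 inhibitors were positive and 5 negative.

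The 10 inhibitors summed to 52.3 and 110 FPKM in the knockouts against 144 and 145 FPKM in the controls, and the 18 activators to 190 and 307 FPKM in the knockouts against 374 and 263 FPKM in the controls. Inhibitor sums were lower in both knockouts than in either control, whereas activator sums overlapped. As a share of both sums, inhibitors made up 21.6% and 26.4% in the knockouts, and 27.8% and 35.4% in the controls. PIAS3 supplied 10.2 and 61.7 FPKM of the inhibitor sums in the knockouts, and 44.8 and 68.9 FPKM in the controls. SOCS4 supplied 0.182 and 0.238 FPKM in the knockouts, and 24.4 and 0 FPKM in the controls. The 2 knockouts were also the 2 shallower libraries, and knockout 1, with the fewest reads and the fewest genes above 0, gave the lowest sum on both sides. The 12 urothelial and epithelial markers summed to 1545 and 1163 FPKM in the knockouts against 440 and 581 FPKM in the controls. KRT8, a keratin of simple epithelia, had the largest share, with 1138 and 816 FPKM in the knockouts against 266 and 397 FPKM in the controls. Its log2 fold change was 1.57 ± 0.41 (SE, n = 2 and 2), with an adjusted p of 0.0896 in limma and of 1.03e-09 in limma-voom, where it was called. Of the 4 epithelial markers tested, 3 had both knockouts above both controls (12.1% of all genes). Fibroblast markers (7) summed to 0 and 6.73 FPKM in the knockouts against 14.9 and 3.95 FPKM in the controls, and endothelial markers (6) to 0 and 4.43 FPKM in the knockouts against 0 and 2.72 FPKM in the controls. The part of depth and of these markers in the sums was not tested.

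**Figure D3:**
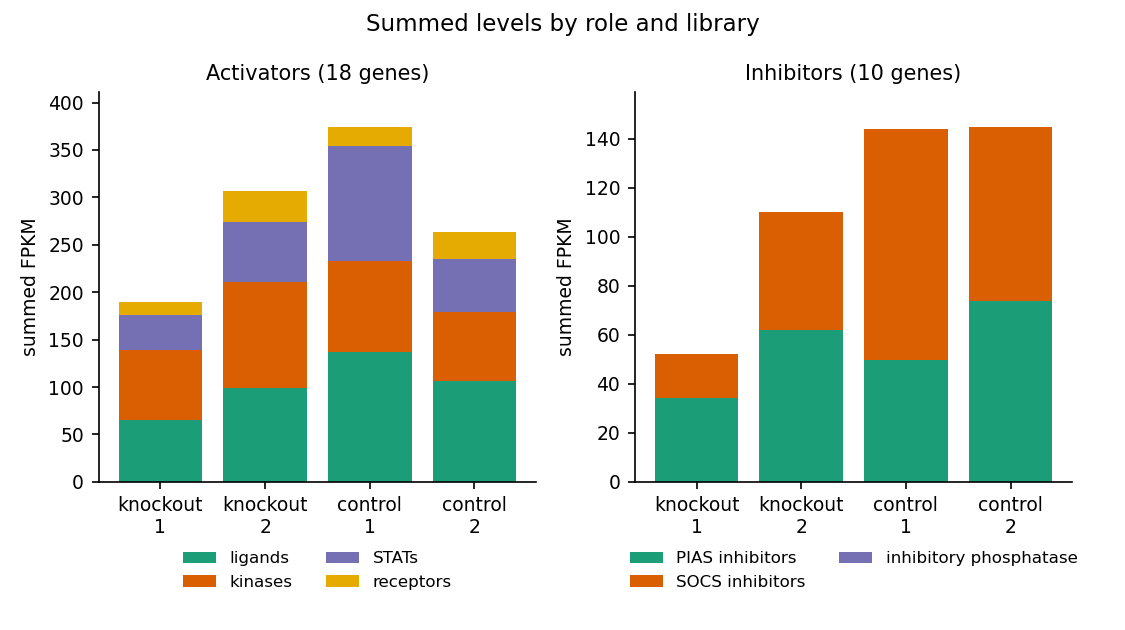
Summed FPKM of the 18 activators and the 10 inhibitors in each library, stacked by role, knockouts on the left. Inhibitor bars reach 52.3 and 110 in the knockouts and 144 and 145 in the controls, and PTPN6 adds nothing because it is listed at 0.

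LIF and JAK1 together supplied 59.4% and 60.8% of the activator sum in the knockouts, and 51.4% and 58.0% in the controls. By mean over the 4 libraries the order was LIF (102 FPKM), PTPN11 (60.5 FPKM), JAK1 (59.1 FPKM), PIAS3 (46.4 FPKM), STAT3 (37.5 FPKM), TYK2 (28.9 FPKM) and STAT2 (25.6 FPKM). SOCS3, SOCS5 and SOCS2 followed at 15.3, 14.7 and 14.2 FPKM. Each gene in this order overlapped the next in its range over the 4 libraries, and the order differed between the groups. In the knockouts it began with LIF, PTPN11, JAK1, PIAS3 and STAT3 (82.4, 71.3, 67.4, 35.9 and 24.7 FPKM). In the controls it began with LIF, PIAS3, JAK1, STAT3 and PTPN11 (121, 56.9, 50.9, 50.2 and 49.7 FPKM). LIF averaged 82.4 ± 23.9 FPKM in the knockouts and 121 ± 21.7 FPKM in the controls, and PTPN11 71.3 ± 27.1 FPKM in the knockouts and 49.7 ± 25.3 FPKM in the controls (SD, n = 2 each).

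Groups were apart for 6 of the 18 members, 1 higher (OSMR) and 5 lower (STAT3, LIF, IL11RA, SOCS3 and SOCS5) in the knockouts. Among all genes tested the groups were apart for 26.5%, with 12.1% higher and 14.4% lower. For 16 of the 18 members (88.9%), and for 84.6% of all genes tested, libraries of at least 1 group differed by more than the groups did. The 2 exceptions were IL11RA, which passed the filter through the controls alone, and SOCS5.

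**Figure D4:**
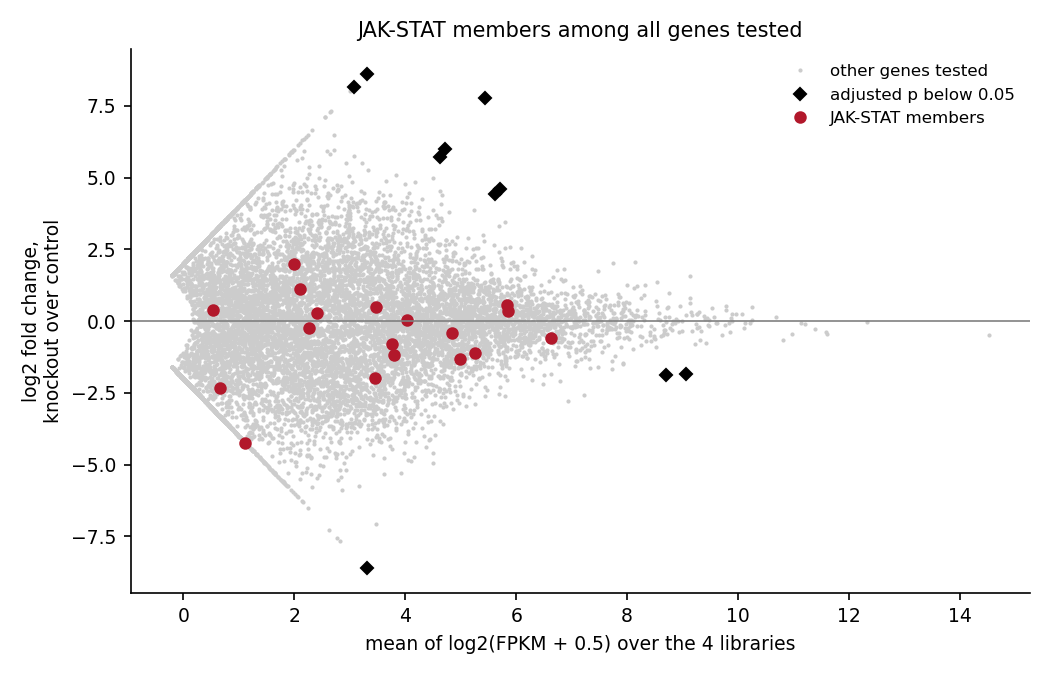
Mean level (x axis, log2(FPKM + 0.5) over the 4 libraries) against the log2 fold change of knockout over control (y axis) for the 11463 genes tested. The 18 members (red) lie within the grey cloud, and the 10 genes with an adjusted p below 0.05 are black diamonds, none of them a member.

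The longest transcript of the 18 tested members had a median length of 5047 nt, against 3762 nt for 9621 protein-coding genes tested. The pentamer GGACT, the core of the m6A consensus, occurred at a median of 1.12 per kb in these transcripts and 0.920 per kb in the protein-coding genes. LIF had the highest density of the 29 members at 2.77 per kb (11 copies in 3969 nt), and STAT6 the lowest at 0.248 per kb. A match is only a run of letters, and methylation was not analysed here.

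Other cytokine receptors that feed JAK kinases were listed alongside, 19 in all. Of these 9 were tested and 0 passed in limma (0.0872% of all genes), with 0 at an unadjusted p under 0.05 (3.91% of all genes). IL4R, the receptor for IL4 and IL13 that activates STAT6, had 53.8 and 25.4 FPKM in the knockouts against 9.92 and 14.4 FPKM in the controls, groups that were apart (log2 fold change 1.59 ± 1.33, SE). It was the 1 of the 9 whose groups were apart, as 12.1% of all genes were in this direction and 26.5% in either. STAT6 itself was listed at 0. Of 10 other ligands 3 were tested, and 0 passed or had an unadjusted p under 0.05 in limma.

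Of 23 further regulators 20 were tested, and 0 passed in limma or had an unadjusted p under 0.05. The list was not split into activators and inhibitors, and holds SOS1, GAB1, CREBBP and EP300 beside SOCS7, PIAS2 and PIAS4. Fitted values were positive for 2 and negative for 18 of the 20, with a median of −1.35, beside 48.2% positive and a median of −0.08 over all genes. Without knockout 1 the median was −0.04 (8 positive and 12 negative), and with any other library left out it ran from −2.56 to −1.11. For 3 of the 20 (RNF7, GAB1 and STAM) the knockout mean alone lay below 1 FPKM, so that they passed the filter through the controls, and these counts carry no test. PIAS4, a PIAS protein outside the 29 members, had 1.17 and 8.93 FPKM in the knockouts against 37.3 and 14.6 FPKM in the controls (−2.59 ± 1.87, SE). SH2B3, the adaptor LNK that restrains JAK2, had 2.05 and 8.20 FPKM in the knockouts against 16.4 and 34.1 FPKM in the controls (−2.36 ± 1.79, SE). These were the 2 of the 20 whose groups were apart, a smaller share than the 26.5% of all genes that were apart in either direction and the 14.4% that were apart and lower. The summed level of the 23 regulators was 247 and 255 FPKM in the knockouts against 286 and 385 FPKM in the controls.

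STAT3 target genes, a list of 20 from textbook knowledge, had 14 tested and 0 past the threshold in limma (0.0872% of all genes). Of the 14, 3 had an unadjusted p under 0.05 (3.91% of all genes). Fitted values were positive for 10 and negative for 4 (48.2% positive over all genes), with a median of 1.07. Without control 1 that split turned to 5 positive and 9 negative with a median of −0.43, beside −0.35 over all genes. Groups were apart with the knockouts higher for 4 of the 14 (12.1% of all genes) and lower for 1 (14.4% of all genes). MCL1, a survival protein of the BCL2 family, had 215 and 104 FPKM in the knockouts against 37.5 and 49.1 FPKM in the controls (log2 fold change 1.79 ± 0.80, SE; adjusted p = 0.955 in limma). CCND1, which encodes cyclin D1, had 91.2 and 227 FPKM in the knockouts against 359 and 316 FPKM in the controls (−1.23 ± 0.56, SE). IER3, an early response gene, had 39.2 and 143.9 FPKM in the knockouts against 55.8 and 1.58 FPKM in the controls, groups that overlapped (2.81 ± 1.19, SE). CCND1 and IER3 were named after their values were seen.

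BIRC5 and ICAM1 were apart in the same direction as MCL1. BIRC5, which encodes survivin, had 43.2 and 45.8 FPKM in the knockouts against 3.41 and 25.6 FPKM in the controls (2.15 ± 1.34, SE). ICAM1, the adhesion molecule whose promoter stretch is printed above, had 70.8 and 36.4 FPKM in the knockouts against 13.9 and 12.3 FPKM in the controls (1.92 ± 1.23, SE). Its controls were close together and both knockouts lay above them. CCND1 pointed the other way, and its knockouts both lay below its controls.

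**Figure D5:**
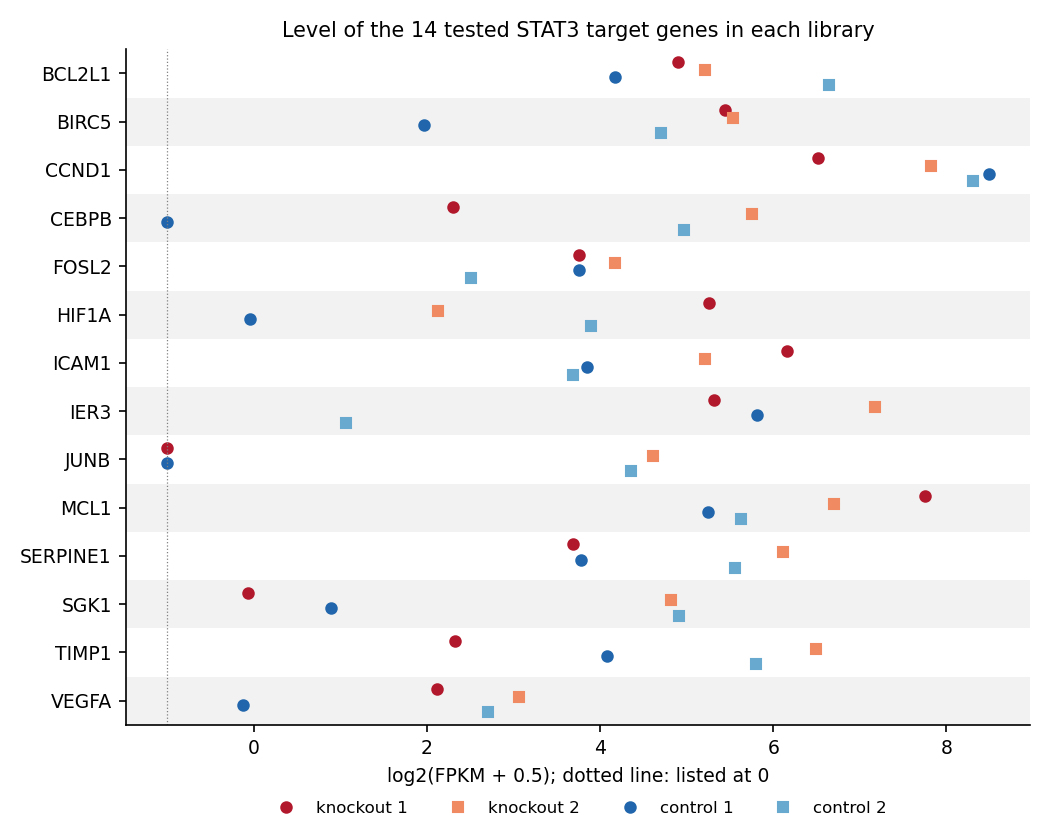
Level of the 14 tested STAT3 target genes in each library on a log2(FPKM + 0.5) scale, with knockouts in red and orange and controls in dark and light blue. Both knockouts lie above both controls for BIRC5, FOSL2, ICAM1 and MCL1 and below them for CCND1, and points on the dotted line are listed at 0.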

How the data were processed

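The authors deposited 1 FPKM table per library, with reads counted per gene by HTSeq per the file names, on hg38 per the submitters' processing notes. Not given in the sources used here: aligner, annotation release, strand setting. FPKM multiplied by the longest transcript in GENCODE 29 were whole multiples of 1 read for 96.5 to 96.7% of genes above 0 (tolerance 0.0001), which gave depths and reads. Names and lengths matched 58039 of 58302 genes.

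Genes with a mean of at least 1 FPKM (11463) were fitted in limma 3.58.1 (R 4.3.3) on log2(FPKM + 0.5), with a trended eBayes prior, for the difference of knockout and control, two-sided, Benjamini-Hochberg adjusted over all genes, threshold 0.05. That scale understates changes of low genes. Since the unit is FPKM, no count test was primary. Motifs and figures used Python 3.11.15 and matplotlib 3.10.9. Alternatives covered pseudocount, filter, scaling, trend, block, each library left out and, chosen after seeing the data, limma-voom, a minimum transcript of 500 nt and the same alternatives for 3 of the further lists.

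Members, lists and the rule for named genes were chosen with earlier results of these data known. All members are named, and from each further list the up to 3 tested genes of largest fitted difference whose groups are apart.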

Additional observations from a re-analysis of the deposited data

How the results depend on the processing

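No member passed the threshold in any of 286 fits of a member under an alternative, and 9 of the 18 kept their sign in every one. The count of 10 genes over all was 18 at an adjusted p of 0.1. It was 0 with an eBayes prior that has no trend (415 reached an unadjusted p under 0.05 in limma). Once transcripts under 500 nt were dropped it was 1 of 10832 genes tested, and at a mean of at least 5 FPKM 9 of 8100. With any 1 library left out it was 0 in limma (752 to 1025 at an unadjusted p under 0.05), and the lone library of a group is then taken to vary as the others do. A p-value of such a fit rests on the spread within the other group and in other genes. Without control 1 that group was the knockouts, with 0 and 0 reads for IL11RA and 1 and 2 reads for SOCS4. The p-values of single members in these fits are therefore not read. With all 4 libraries STAT2 turned to −0.012 with a pseudocount of 1, −0.0017 with median-ratio size factors and −0.24 in limma-voom, and PIAS1 to 0.16 under quantile normalization. The cause was not tested.

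With 1 library left out the activator median ran from −0.59 to 0.24 and the inhibitor median from −1.95 to −0.44. The fitted log2 fold changes that turned sign ran from −1.96 to 2.02 for STAT2, −2.39 to 0.15 for PIAS3, −0.099 to 0.78 for JAK1, −0.996 to 1.54 for STAT5B, −1.34 to 2.09 for IL6R, −2.72 to 2.23 for PIAS1, −0.38 to 1.36 for IL6ST, −5.14 to 0.50 for SOCS4 and −1.44 to 3.66 for SOCS6.

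The replicate block, with the number in the title as a term, gave 14 genes and 0 members. Same-numbered libraries did not deviate together in their values (r = −0.0040 across 11463 genes), but 2 pairs cannot settle whether the numbers pair the samples, and library 1 had fewer genes above 0 than library 2 in both groups. Depth limits what can be said of members at a few reads, such as JAK2, SOCS4 in the knockouts and OSMR in control 1. SOCS4 also had 358 and 0 reads in the controls, whose depths were 2162179 and 1870884. The cause of that gap was not tested.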
